A study of Sus scrofa with 13 samples.

Results

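Mitochondrial ribosomal proteins were represented in these data by 61 of the 25322 genes counted in pig longissimus lumborum, the long muscle of the loin. A gene was a member when its deposited symbol, or the reference name of its Ensembl identifier, began with MRPL or MRPS followed by a digit. By name MRPL stands for the large subunit (39 genes) and MRPS for the small subunit (22 genes). MRPS18A, MRPS30 and MRPS36 are exceptions described below. The choice used names and no measured value. RNA-seq was made from 13 female pigs aged 6 months, kept under the same housing and feeding and slaughtered at a similar weight. They formed 4 groups of breed and loin weight: 3 Hampshire pigs with low loin weight (pigs 1, 2 and 3), 3 Hampshire pigs with high loin weight (pigs 8, 9 and 10), 3 Pietrain pigs with low loin weight (pigs 3, 5 and 8) and 4 Pietrain pigs with high loin weight (pigs 1, 2, 6 and 7). A pig number names an animal only within its breed. The labels place more pigs in the Pietrain high group than the study's table of carcass weights lists, and every labelled pig was used. Both are sire breeds selected for lean meat, and the high and low groups were picked from the range of loin weight within each breed. The counts of each breed came in a table of their own, so breed and table cannot be told apart.

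The mitochondrial ribosome is the machine inside the organelle that translates the few messages of the mitochondrial genome, all of which code for subunits of the respiratory chain and ATP synthase. Its RNAs come from mitochondrial DNA, but its proteins are encoded in the nucleus, made in the cytosol and imported. Some are descendants of bacterial ribosomal proteins and others were added in the mitochondrial lineage, and skeletal muscle, rich in mitochondria, depends on all of them for oxidative metabolism. A level in these data is that of the messenger RNA and not of the protein.

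All 61 members passed edgeR's filter on low counts in every fit, and the smallest count of a member in a pig was 34. Total counts per pig ran from 11312755 to 20134612, and the skeletal muscle markers summed to between 58839 and 225138 CPM in every pig. These sums were not alike in the Hampshire groups, as given with the other markers below. CPM are counts scaled to a common library size, here TMM-normalized in 1 fit over all 13 pigs. They are not divided by transcript length, so they rank genes by reads and not by message number. MRPL28 (mean CPM of 253 ± 69 (SD, n = 3) in the Hampshire high group), MRPL17 and MRPS36 took the most reads, and MRPL54, MRPL55 and MRPL22 the fewest. MRPL54 ranged only from 2.27 to 4.86 CPM over the 13 pigs. On the Sscrofa10.2 assembly, 58 members lay on 17 chromosomes and 3 (MRPS15, MRPL45 and MRPS30) on unplaced scaffolds. The gene models of MRPL21, MRPL47, MRPL49, MRPL53 and MRPS22 overlap a neighbouring gene. MRPS11 and MRPL46 lie 27 bp apart on chromosome 1. The library kit does not mark strand, so reads of overlapping genes cannot be told apart. The gene named MRPL53 in the deposited table is CCDC142 in the reference names, so its name is uncertain.

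The 3 Hampshire pigs with high loin weight had the 3 highest mean levels of the members. The mean over the 61 members of log2 (CPM + 0.5) was 5.19, 5.32 and 5.13 in Hampshire high pigs 8, 9 and 10. It was 4.92, 4.68 and 4.63 in Hampshire low pigs 1, 2 and 3. In Pietrain it was 4.65, 4.70, 4.50 and 4.78 in high pigs 1, 2, 6 and 7, and 4.68, 4.85 and 4.76 in low pigs 3, 5 and 8. The 2 Hampshire groups did not overlap, while the Pietrain groups did. Summed over the members, the CPM ran from 2650 to 3166 in the Hampshire high group and from 1673 to 2264 in the other 10 pigs. In bulk muscle, fewer cells of a type and less RNA per cell cannot be told apart.

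**Figure D1:**
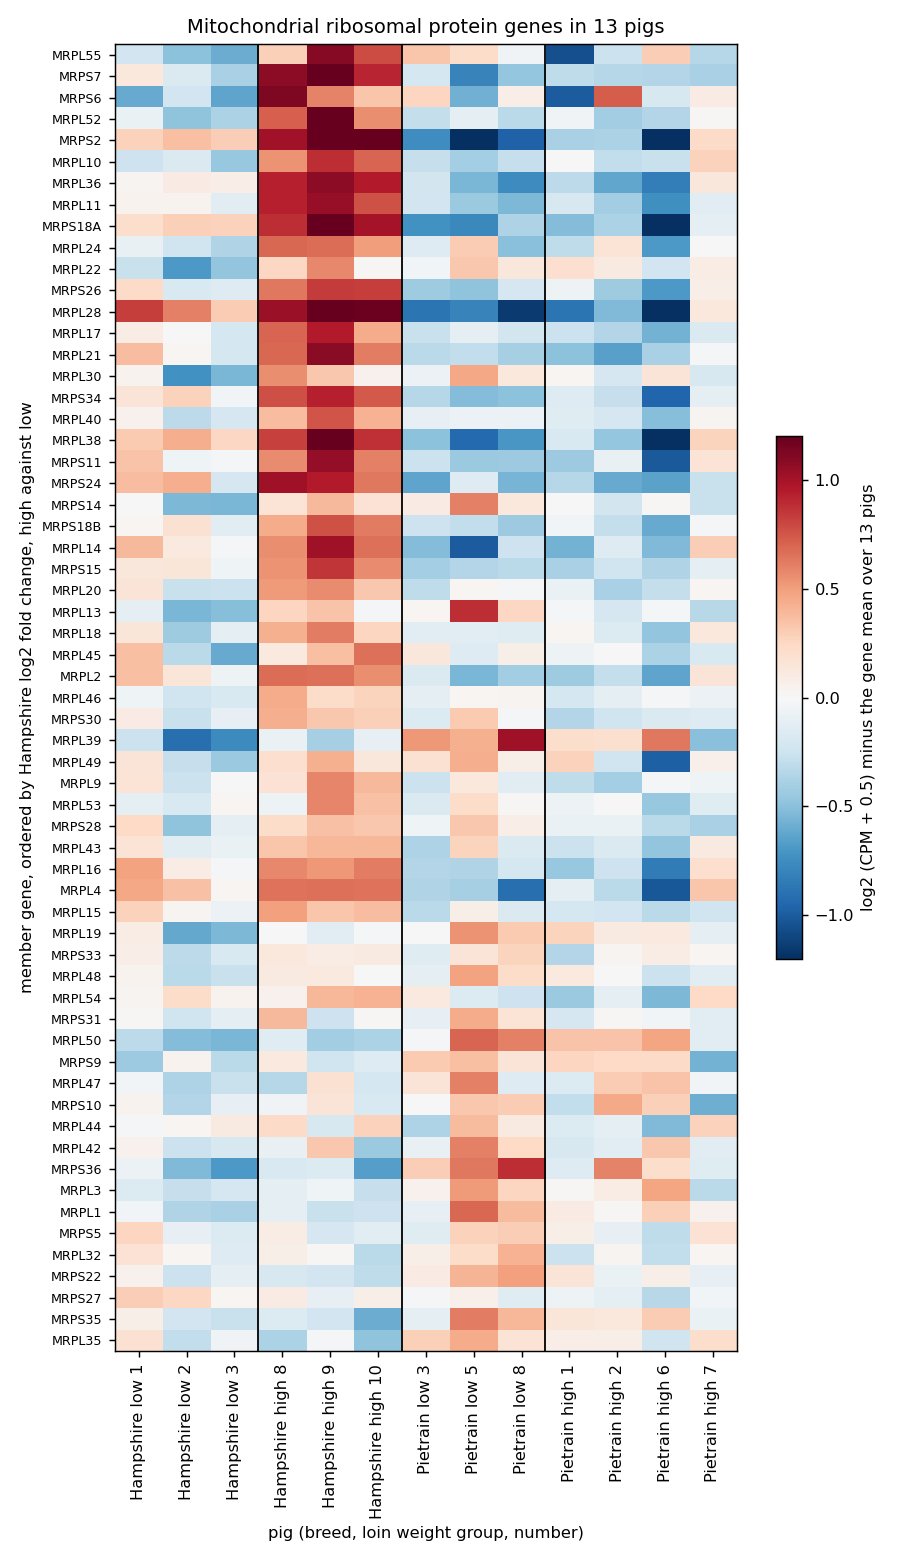
Each row is a member gene and each column a pig, grouped by breed and loin weight, and the colour is log2 (CPM + 0.5) minus the gene's mean over the 13 pigs (red higher, blue lower, values past an end of the scale take its end colour). Rows run from MRPL55 (Hampshire log2 fold change of 1.27) to MRPL35 (-0.25), and the upper rows are red mainly in the 3 Hampshire high pigs, while the lowest rows are not.

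Whether the members differed with loin weight was asked first in Hampshire. In pigs with high loin weight 25 members (41.0%) were higher and 0 lower by edgeR's quasi-likelihood test. A call needed a p below 0.05 after Benjamini-Hochberg adjustment over all genes and a fold change no smaller than 1.2. Among all 12228 genes tested, 12% passed as higher and 14.6% as lower. The log2 fold change was above 0 in 55 of 61 members, with a median of 0.47 against 0.03 over all genes. For 37 members every high pig lay above every low pig, and for 0 members below, against 22.3% of all genes higher and 23.6% lower. These 37 included all 25 members that passed.

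The members with the largest rise came from both subunits. MRPL55, a small protein of the large subunit (chromosome 2, 78533530 to 78535171, ENSSSCG00000029050), had 7.36, 13.3 and 10.6 CPM in Hampshire high pigs 8, 9 and 10 and 5.02, 4.08 and 3.78 CPM in low pigs 1, 2 and 3. It rose by 1.27 ± 0.27 (SE) on the log2 scale, 2.41-fold (adjusted p = 0.0117). It was among the least counted members, and every high pig still lay above every low pig. MRPS7, which binds the decoding region of the small subunit RNA (chromosome 12, 5813899 to 5817178, ENSSSCG00000017210), had 38.3, 45.4 and 34.4 CPM in the high pigs and 19.7, 15.9 and 13.7 CPM in the low pigs. Its log2 fold change was 1.25 ± 0.19 (adjusted p = 0.00429), the smallest adjusted p of the members. All 7 Pietrain pigs, at 10.1 to 15.4 CPM of MRPS7, lay well under the Hampshire high pigs and overlapped the low ones.

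MRPS6, a small subunit protein (chromosome 13, 207569045 to 207586377, ENSSSCG00000026981), had 34.6, 23.9 and 19.9 CPM in the Hampshire high pigs and 10.1, 13.3 and 9.95 CPM in the low pigs. Its log2 fold change was 1.22 ± 0.23 (adjusted p = 0.00811). The Hampshire groups were apart, although the Pietrain pigs spread from 7.6 to 26.3 CPM across both. MRPL52, a large subunit protein without a bacterial counterpart (chromosome 7, 81426699 to 81431178, ENSSSCG00000002040), had 57.7, 81 and 51.4 CPM in the Hampshire high pigs and 32.8, 24.7 and 26.6 CPM in the low pigs, a log2 fold change of 1.17 ± 0.21 (adjusted p = 0.00694). MRPS2, which helps hold other proteins on the small subunit (chromosome 1, 308635546 to 308639471, ENSSSCG00000005759), had 30.2, 50.3 and 41.6 CPM in the Hampshire high pigs and 18.1, 19.2 and 18.2 CPM in the low pigs, a log2 fold change of 1.14 ± 0.20 (adjusted p = 0.0069). The low pigs were almost alike for MRPS2 (SD of 0.588 CPM), and the spread lay in the high group (SD of 10.0 CPM).

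The stalk of the large subunit, where translation factors dock, was represented by MRPL10 and MRPL11. MRPL10 (chromosome 12, 23954339 to 23960895, ENSSSCG00000017519) had 18.5, 23.7 and 20.7 CPM in the Hampshire high pigs and 10.5, 11.1 and 9.04 CPM in the low pigs. The log2 fold change was 1.03 ± 0.18 for MRPL10 (adjusted p = 0.00637) and 0.94 ± 0.15 for MRPL11 (adjusted p = 0.00493). MRPL11 (chromosome 2, 5054876 to 5057918, ENSSSCG00000012943) had 54.8, 59.3 and 48.9 CPM against 29.5, 29.5 and 25.9 CPM. MRPL10 was thus 2.04-fold and MRPL11 1.91-fold higher, with no overlap between the groups. MRPL12, the third protein of the stalk, was not analysed here.

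Of the other large subunit proteins named, MRPL36 rose by 0.94 ± 0.16 on the log2 scale, with 20.2, 22.2 and 20.3 CPM in the Hampshire high pigs and 10.5, 11 and 10.9 CPM in the low pigs (adjusted p = 0.00525). MRPL24 rose by 0.85 and MRPL22, which lines the exit tunnel of the nascent chain, by 0.81 on the log2 scale (adjusted p = 0.00699 and 0.0326). MRPS18A, which in spite of its symbol sits in the large subunit, rose by 0.88 ± 0.18 (adjusted p = 0.0109). The groups were far apart for it, at 76.3, 114 and 82.9 CPM against 47.5, 50.3 and 49.9 CPM. Its gene model on chromosome 7 spans 146228 bp, the longest of the members that passed. In the small subunit, MRPS26, MRPS34 and MRPS18B, none with a bacterial counterpart at its place, rose by 0.79, 0.68 and 0.59 on the log2 scale (adjusted p = 0.0146, 0.0149 and 0.0298). MRPS30, also a large subunit protein by structure, did not pass at 0.44 ± 0.17 (adjusted p = 0.0895), and neither did MRPL45, which tethers the ribosome to the inner membrane, at 0.53 ± 0.27 (adjusted p = 0.176).

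Several members differed little between the Hampshire groups. MRPL3, next to the peptidyl transferase centre, had 44.5, 46.3 and 39.5 CPM in the high pigs and 42.7, 39.4 and 41.5 CPM in the low pigs, a log2 fold change of 0.07 ± 0.14. The groups overlapped. MRPL1, the protein of the L1 stalk, MRPL44, which has a ribonuclease-like fold, and MRPS36 had log2 fold changes of 0.03, 0.08 and 0.07. MRPS36 is now counted with the 2-oxoglutarate dehydrogenase complex and not with the ribosome. MRPS5, at the messenger entry, was at -0.10, MRPS22 at -0.15 and the pentatricopeptide protein MRPS27 at -0.17. The lowest value was that of MRPL35, -0.25 ± 0.19 (adjusted p = 0.362), with 26.2, 33.8 and 24.4 CPM in the high pigs and 38.8, 27.7 and 33.2 CPM in the low pigs. None of these 8 passed the test.

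By structural origin, the shares that passed as higher ranged from 31.2% to 54.5%. Among bacterial-type proteins of the large subunit 11 of 25 passed (median log2 fold change of 0.58), and among those of the small subunit 6 of 11 (median 0.59). Among proteins specific to the mitochondrial ribosome, 5 of 16 passed in the large subunit (median 0.44) and 3 of 8 in the small subunit (median 0.21). The classes were not tested against each other. Ribosomal proteins without an MRP symbol lay in the same range. GADD45GIP1, of the large subunit, rose by 1.00 ± 0.24 and CHCHD1, of the small subunit, by 0.70 ± 0.17 (adjusted p = 0.0173 and 0.0188). DAP3, a GTP-binding protein of the small subunit, was at 0.08 and PTCD3, a pentatricopeptide protein of the same subunit, at -0.23, and neither passed.

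**Figure D2:**
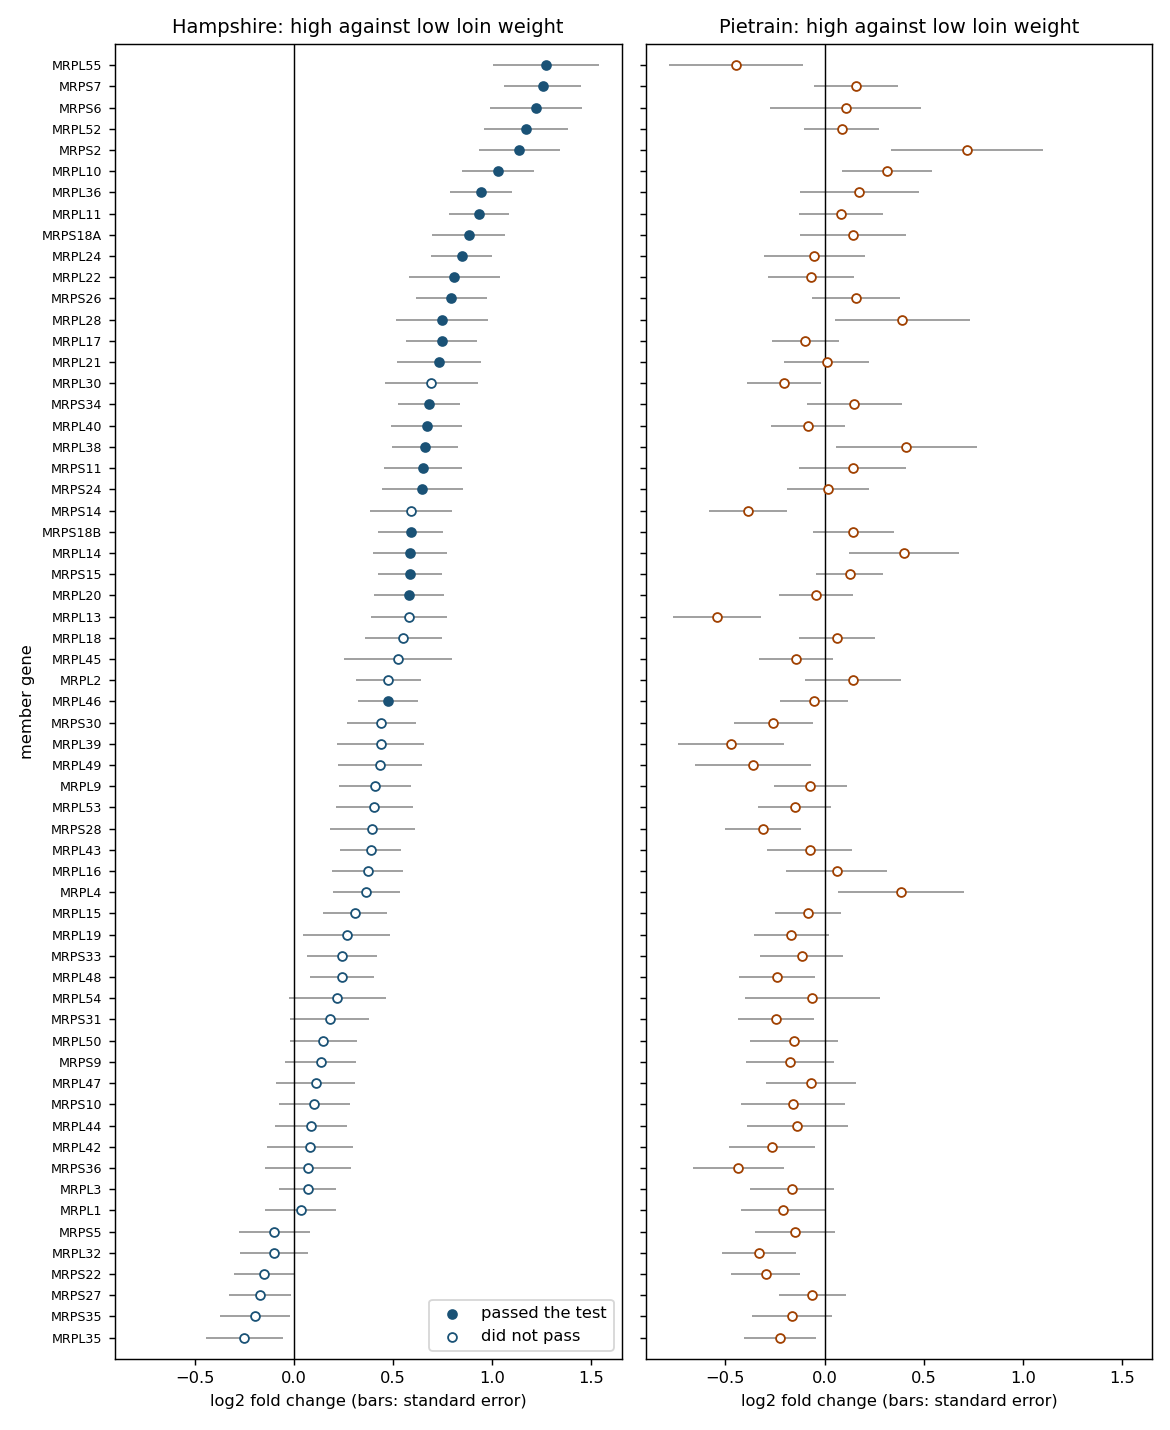
Points are log2 fold changes of high against low loin weight for each of the 61 members, with standard errors, in Hampshire (left) and Pietrain (right), and filled points passed the test. In Hampshire 25 points are filled, all to the right of 0, and in Pietrain none is.

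The Hampshire count rested on few animals. Leaving out low pig 3 left 8 members called higher, against 2.99% of all genes. Without high pig 9 it was 12 (5.74% of all genes), without low pig 2 it was 13 (7.18%) and without high pig 10 it was 14 (5.76%). Without high pig 8 it was 21 (10.3%) and without low pig 1 it was 24 (7.43%), so the count over all genes fell in each of these fits too. MRPL10, MRPL11, MRPL24, MRPL36, MRPL52, MRPS2, MRPS6 and MRPS7 passed in all 6 of these fits. MRPL22 and MRPS18B lost the call in 4 of them, MRPS26 in 2 and MRPL55, MRPS18A and MRPS34 in 1. The share of all genes that passed in all 6 was not counted, so nothing about the members as a set is read from these 8. With library totals in place of TMM, 17 members passed against 6.39% of all genes called higher, and the median over all genes moved from 0.03 to -0.12 on the log2 scale. A change of scaling moves all genes by nearly the same amount, so the members' median minus that of all genes could hardly change. That difference was 0.45 under both scalings, and nothing about stability is read from it. Of all genes called, 45.1% were higher with TMM and 28.8% with library totals, while every member called was higher under both.

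Most members are short genes, and in Hampshire the log2 fold change fell with gene length over all genes. Of the 61 members, 34 lay in the tercile of genes with the shortest models and 9 in that with the longest, among them MRPS18A. The median length on the chromosome was 7639 bp for members and 18945 bp for all genes with a length in the deposited tables. It was 4765 bp for the 25 members that passed and 13688.5 bp for the 36 that did not. Across genes, which are not independent replicates, Spearman's rho between log2 fold change and length was -0.386 over all genes (n = 9945) and -0.513 over the members (n = 61) in Hampshire. In Pietrain rho was -0.0893 over all genes (n = 9964) and -0.389 over the members (n = 61). In the tercile with the shortest models, the median deviation of a pig's log2 level from the gene mean lay between 0.34 and 0.41 in the Hampshire high pigs. It lay between -0.00099 and 0.05 in the Hampshire low pigs and between -0.27 and 0.02 in the Pietrain pigs. With each pig's trend of level with length removed, 13 members passed, against 10.3% of all 9945 genes with a length, and the members' median was 0.30. Of these 13, 11 were among the 25, and MRPL13 and MRPS28 passed in addition. The 8 members that passed in every fit with a pig left out passed here too, as did MRPL55 and MRPS18A, while MRPL22, MRPS26, MRPS34 and MRPS18B did not. For this overlap, too, the share of all genes was not counted. The source of the length trend was not tested.

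**Figure D3:**
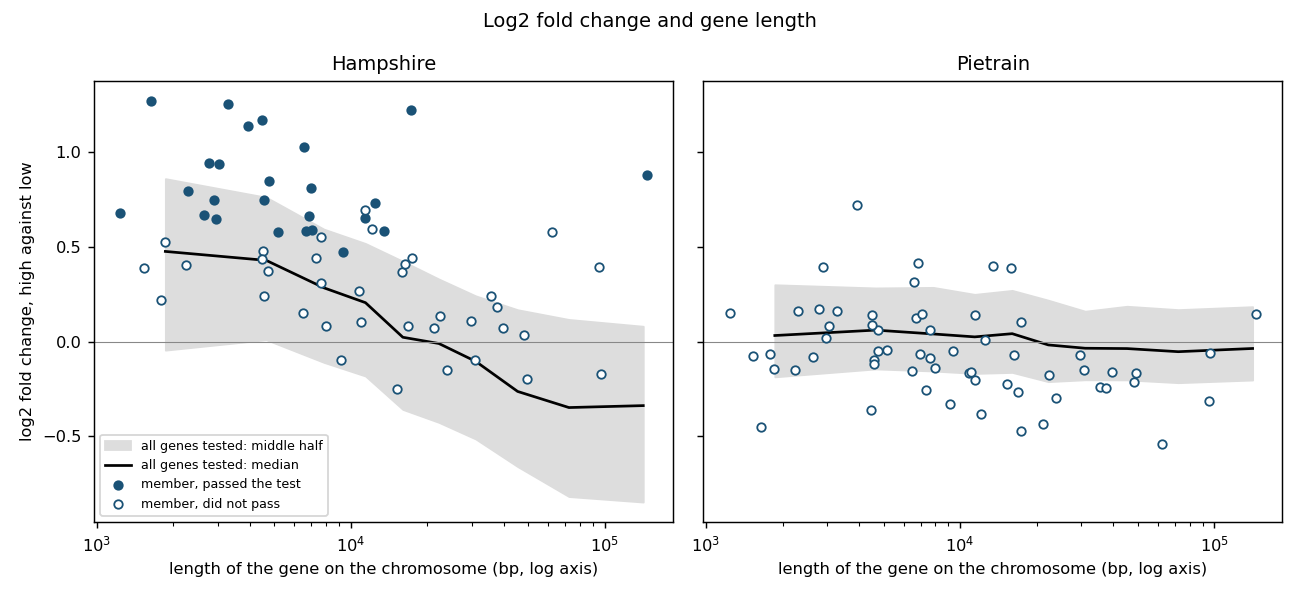
Log2 fold change of high against low loin weight is plotted against gene length (bp, log axis) for Hampshire (left) and Pietrain (right), with the median of all genes in bins of length as a line, the range between their quartiles as a band, and the members as circles (filled where they passed). In Hampshire the line falls with length and the filled circles lie mostly at short lengths above it, with MRPS18A far to the right. In Pietrain the line is nearly flat, while the members' values fall with length (Spearman's rho of -0.389).

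In Pietrain, no member was called between the high and the low group by edgeR's quasi-likelihood test, and 0.0% of all 12065 genes were called in either direction. DESeq2 also called 0 members, and only 1 of all 12065 genes. The study itself reported genes that differed between the Pietrain groups, and more of them than in Hampshire. The source of that difference in outcome was not tested. At an unadjusted p under 0.05 stood 1 member, against 3.3% of all genes. The log2 fold change was above 0 in 22 of 61 members, with a median of -0.07 against 0.02 over all genes. The groups did not overlap for 4 members, all lower in the high group, against 2.08% of all genes higher and 2.51% lower. They were MRPL13, MRPS14, MRPL32 and MRPS28, the last of them named after its values were seen.

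MRPL13, a large subunit protein (chromosome 4, 19634625 to 19696795, ENSSSCG00000005996), had 25.5, 22.4, 25.4 and 20.4 CPM in Pietrain high pigs 1, 2, 6 and 7 and 26.3, 48.2 and 30.7 CPM in low pigs 3, 5 and 8. Its log2 fold change was -0.54 ± 0.22 (unadjusted p = 0.0335 and adjusted p = 0.939, edgeR's quasi-likelihood test). Low pig 5 had the highest value by far, and leaving out each pig in turn gave -0.68 to -0.27. MRPS14, of the head of the small subunit (chromosome 9, 128703421 to 128715554, ENSSSCG00000015503), had 18.9, 16.2, 19.1 and 15.6 CPM in the high pigs and 20.3, 29 and 20.7 CPM in the low pigs, a log2 fold change of -0.38 ± 0.20. MRPS36, MRPS2 and MRPL32 followed by unadjusted p, with log2 fold changes of -0.43, 0.72 and -0.33 (each adjusted p = 0.939). MRPS2 spread from 5.19 to 17.4 CPM in the Pietrain high pigs, and the low pigs, at 5.07 to 8.62 CPM, fell within the lower part of that spread or just under it.

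The sign of the change was the same in both breeds for some members only. In 33 members the log2 fold change was above 0 in Hampshire and below 0 in Pietrain, in 22 it was above 0 in both, and in 6 below 0 in both. Of the 25 members called in Hampshire, 7 were below 0 in Pietrain. These are counts of estimates, none of which passed in Pietrain, and the difference itself was tested as an interaction over all 13 pigs. The effect of loin weight was more positive in Hampshire for 6 members (9.84%) and less positive for 0 at an adjusted p under 0.05, against 1.68% and 4.22% of all 12831 genes. The estimate was above 0 in 60 of 61 members, with a median of 0.52 against -0.02 over all genes. The Hampshire high group enters both this test and the comparison within Hampshire.

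Of the 6 members, MRPL55 had the widest difference, 1.75 ± 0.45 on the log2 scale (adjusted p = 0.0351). In Pietrain it had 2.61, 4.89, 7.4 and 4.6 CPM in the high pigs and 7.64, 7.04 and 5.78 CPM in the low pigs, a log2 fold change of -0.45 ± 0.34 with overlapping groups. MRPS7 differed by 1.13 ± 0.27 (adjusted p = 0.0259) and MRPL52 by 1.13 ± 0.28 (adjusted p = 0.0316), and both were near 0 in Pietrain, at 0.16 and 0.09. For MRPL13 the difference was 1.17 ± 0.31 (adjusted p = 0.0407) and for MRPS14 1.02 ± 0.28 (adjusted p = 0.049). Neither of these passed within Hampshire, where MRPL13 was at 0.58 (adjusted p = 0.0509) and MRPS14 at 0.59 (adjusted p = 0.0618), and neither passed within Pietrain. MRPL17, a large subunit protein with 161, 191 and 135 CPM in the Hampshire high pigs and 105, 98.6 and 85.3 CPM in the low pigs, differed by 0.88 ± 0.24 (adjusted p = 0.0409). Its Pietrain values, 66.3 to 90.9 CPM over both groups, overlapped and gave a log2 fold change of -0.10 ± 0.17.

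The count of the difference was small and moved with single pigs. It was 0 without Hampshire high pig 9, Hampshire low pig 2 or 3, Pietrain high pig 2 or Pietrain low pig 8, and 8 without Pietrain high pig 7. It was 1 without Pietrain high pig 1 or Pietrain low pig 3 or 5, 2 without Hampshire high pig 8, 3 without Hampshire high pig 10 and 5 without Hampshire low pig 1 or Pietrain high pig 6. Members at an unadjusted p under 0.05 numbered 27 of 61, while 22.1% of all genes stood there. With a pig left out the fewest were 13 of 61, without Hampshire low pig 3, against 2384 of 13262 genes. The most were 33 of 61, without Pietrain high pig 7, against 3121 of 12760 genes. Over all genes, the share called more positive ran from 0.287% without Hampshire low pig 3 to 2.55% without Pietrain high pig 7. DESeq2 called 9 members (3.48% of all genes) and limma-voom 5 (1.6%). Library totals in place of TMM called 1 (0.834%) and no filter on low counts 1 (0.702%).

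**Figure D4:**
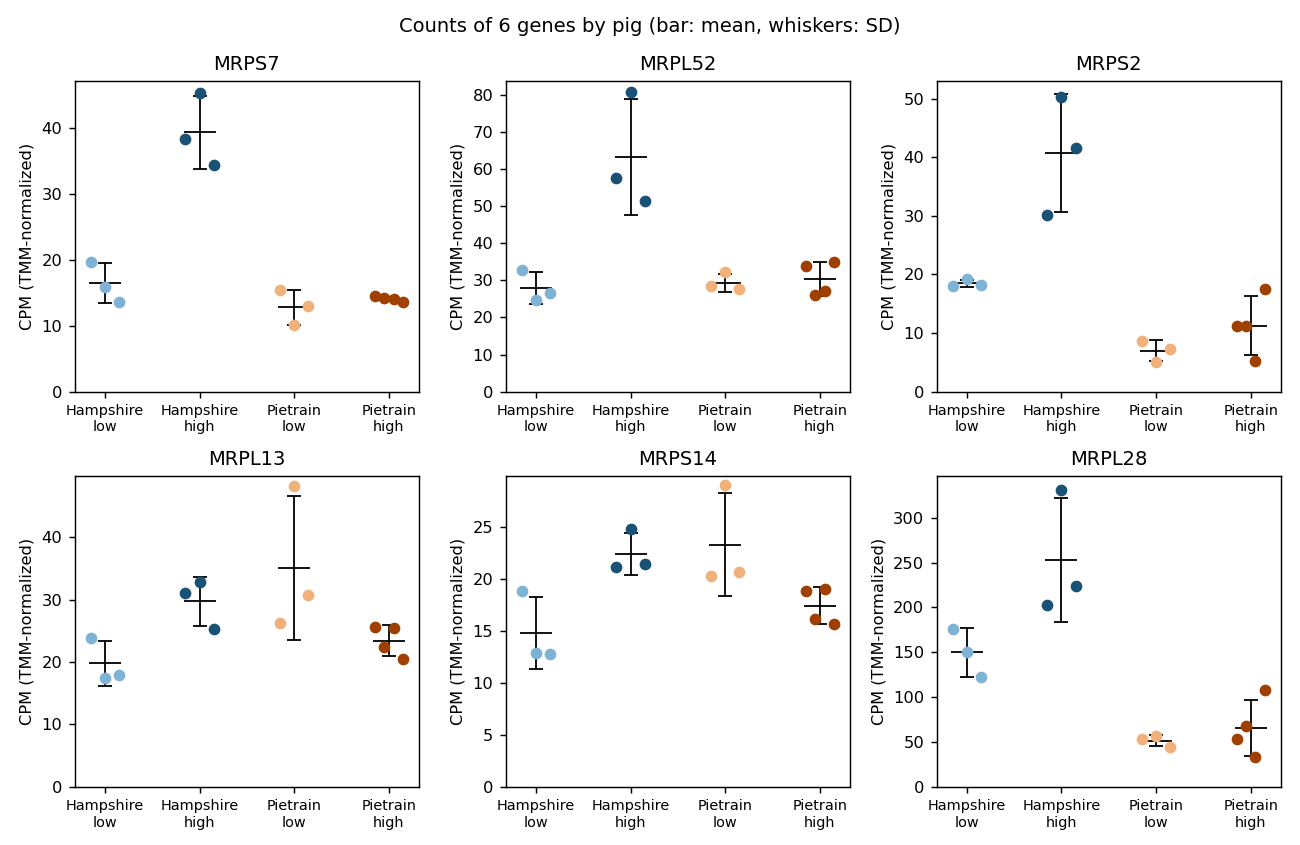
Each panel shows the CPM of a member in every pig (points) of the 4 groups, with the mean as a bar and the SD as whiskers (n = 3, and n = 4 in Pietrain high). MRPS7, MRPL52 and MRPS2 are highest in the Hampshire high pigs, MRPL13 and MRPS14 have their highest pig in the Pietrain low group, and MRPL28 is lower in every Pietrain pig than in any Hampshire pig.

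Levels were then compared between breeds within each loin weight class. At low loin weight 5 members (8.2%) were higher in Hampshire and 6 (9.84%) lower, against 7.84% and 10.1% of all genes, so both shares were near those of all genes. MRPL28, a large subunit protein (chromosome 3, 41094505 to 41097389, ENSSSCG00000007984), had 176, 151 and 122 CPM in the Hampshire low pigs and 53.5, 56.6 and 44.3 CPM in the Pietrain low pigs. Its log2 difference was 1.54 ± 0.34 (adjusted p = 0.0149), 2.91-fold, with the breeds well apart. MRPS2 was higher by 1.40 ± 0.34, MRPL38 by 1.06 ± 0.32 and MRPS18A by 0.88 ± 0.25 on the log2 scale (adjusted p = 0.0198, 0.0366 and 0.0302).

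Among the members lower in Hampshire at low loin weight, MRPL39, a large subunit protein (chromosome 13, 199001550 to 199018936, ENSSSCG00000012021), had 21.1, 13.3 and 14.7 CPM in the Hampshire low pigs and 36.6, 34.3 and 51.6 CPM in the Pietrain low pigs. It was 2.5-fold lower, at -1.32 ± 0.28 (adjusted p = 0.0137). MRPS36 was at -1.03 ± 0.25, MRPL50 at -0.94 ± 0.22, MRPL13 at -0.83 ± 0.23 and MRPS14 at -0.65 ± 0.21 (adjusted p = 0.0191, 0.0162, 0.0285 and 0.0432). The members above were named because their groups did not overlap. The other two called, MRPS24 (higher, 0.68 on the log2 scale, adjusted p = 0.0434) and MRPL1 (lower, -0.63, adjusted p = 0.049), had overlapping groups. The number called moved with single pigs, for the members and for all genes, of which 17.9% were called in either direction. No member was called without Hampshire low pig 2 or Pietrain low pig 8, where 0.828% and 0.842% of all genes were. Without Hampshire low pig 3 it was 2 higher and 0 lower (3.78% of all genes), and without Pietrain low pig 5 it was 0 higher and 1 lower (1.23%). Without Hampshire low pig 1 it was 2 higher and 8 lower (12.6%), and without Pietrain low pig 3 it was 3 higher and 9 lower (19.7%).

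At high loin weight 33 members (54.1%) were higher in Hampshire and 1 (1.64%) lower, against 22.6% and 24.2% of all genes. The median log2 difference was 0.55 against 0.02 over all genes. MRPL28 was higher by 1.94 ± 0.31, MRPS2 by 1.85 ± 0.31, MRPS18A by 1.66 ± 0.23, MRPS7 by 1.49 ± 0.18, MRPL36 by 1.40 ± 0.23 and MRPS24 by 1.35 ± 0.20 on the log2 scale (adjusted p from 4.16e-05 to 0.000388). MRPL28 had 203, 331 and 224 CPM in the Hampshire high pigs against 53.8, 68.2, 32.8 and 108 CPM in the Pietrain high pigs. MRPS24 had 51.4, 48.9 and 39.1 CPM against 19.7, 16.3, 15.9 and 20.8 CPM. MRPL50, the only member called lower, was at -0.60 ± 0.20 (adjusted p = 0.0268), with 22.5, 18.5 and 19.1 CPM against 31.7, 31.9, 35 and 22.8 CPM. Without Hampshire high pig 9 or 10, 0 members were called lower, against 2658 of 13273 and 2610 of 13109 genes. Without Pietrain high pig 7 it was 2, against 3222 of 12760 genes.

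The comparison at high loin weight shares the Hampshire high group with the comparison within Hampshire, so they are not independent. Members called in both numbered 23, and the share of all genes called in both was not counted, so nothing about the members is read from it. Scaling moved its balance. With library totals 26 members were higher (14.8% of all genes) and 6 (9.84%) lower, against 3825 of 12831 genes lower. Of the members called, 81.2% were then higher in place of 97.1%, and over all genes 33.1% in place of 48.3%. Here too, scaling could hardly change the members' median minus that of all genes. It was 0.53 under both scalings. With the length trend removed it was 0.24, and 24 members were higher (23.5% of all genes with a length). For the difference between breeds that fit called 2 members (1.11% of all genes with a length). Every member had a length, but fewer than 80% of all genes of the 13-pig fit (77.7%) did, so no conclusion is drawn. Levels went with length in these comparisons too. At high loin weight Spearman's rho between log2 difference and length was -0.391 over all genes with a length and -0.558 over the members. For the difference between breeds it was -0.337 and -0.324. The part of gene length in the counts of members called was not tested.

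Other parts of mitochondrial gene expression in Hampshire are given by their counts, to be read against the 12% of all genes called higher and the 14.6% called lower, and no list was tested against the members. Of 8 translation factors tested, TUFM, the elongation factor that brings aminoacyl-tRNA to the ribosome, rose by 0.61 ± 0.16 on the log2 scale (adjusted p = 0.0227). GFM1 and GFM2, the translocation and recycling factors, fell by 0.68 and 1.78 and MTRF1, a release factor, by 0.75 (adjusted p = 0.0156, 0.00406 and 0.0381). Of 17 ribosome assembly genes 3 were higher and 1 lower (median 0.02), and of 14 mitochondrial tRNA synthetases 0 were higher and 1 lower (median -0.13). Of 6 genes of mitochondrial transcription, SLIRP, which stabilizes mitochondrial messages, was the one that passed, at 0.89 ± 0.21 (adjusted p = 0.0177). Of 7 regulators of mitochondrial biogenesis 0 were higher and 2 lower, PPARGC1A at -1.74 and ESRRG at -2.42 (adjusted p = 0.0131 and 0.0146).

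Products of the mitochondrial ribosome, the 13 proteins encoded by mitochondrial DNA, had a median log2 fold change of -0.27 in their messages, with 0 higher and 3 lower (ND4L, ATP8 and ND5, at -1.49, -0.92 and -0.85). Nuclear subunits of the respiratory complexes, with which these products assemble, had 29 of 66 higher and 0 lower (median 0.58). Proteins of the cytosolic ribosome had 55 of 55 higher (median 0.98). The members, at a median of 0.47, thus had a lower median than both nuclear lists, and the lists were not tested against each other. In Pietrain 0 genes of any of these lists were called by edgeR, and the medians were -0.35 for the mitochondrially encoded messages, -0.10 for the nuclear subunits and -0.12 for the cytosolic ribosome.

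**Figure D5:**
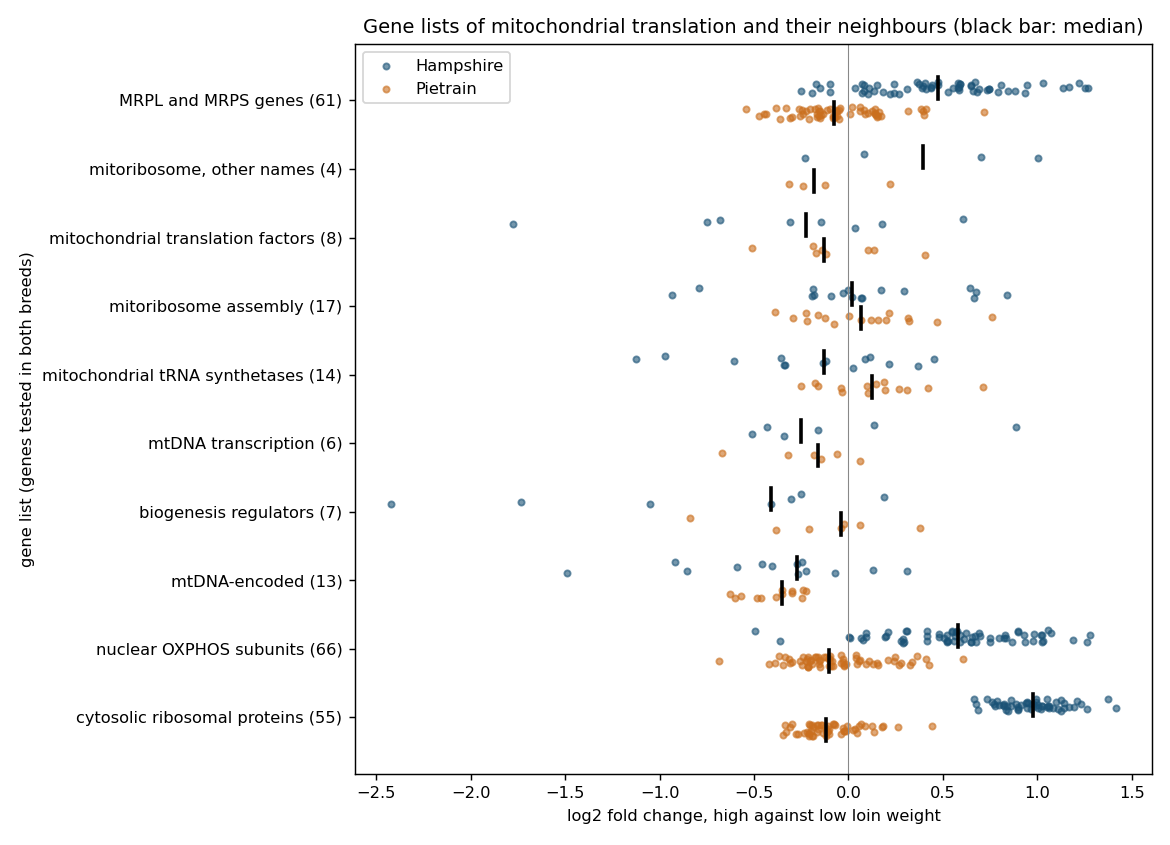
Points are log2 fold changes of high against low loin weight for the genes of each list tested in both breeds (number in brackets), in Hampshire (blue) and Pietrain (orange), and black bars are medians. The cytosolic ribosomal proteins, nuclear respiratory subunits and members lie mostly to the right of 0 in Hampshire (medians of 0.98, 0.58 and 0.47), while the mitochondrially encoded messages (median -0.27) lie mostly to the left in both breeds.

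Markers of skeletal muscle, of fibre type and of other cells moved with loin weight in Hampshire too. Sums of the 5 skeletal muscle markers were 134774 to 225138 CPM in the high group and 87487 to 120931 CPM in the low group. Of these 5, CKM was called higher (0.98 on the log2 scale) and 0 lower, with RYR1 at -0.42 and not called. In Pietrain the muscle sums overlapped, and 0 of 5 were called. All 5 slow fibre markers tested were higher in the high group (MYH7, the slow myosin, at 1.17 on the log2 scale), with sums of 11700 to 17800 CPM against 2834 to 6607 CPM in the low group. Of the 3 fast fibre markers 0 were higher and 1 lower (MYH1 at -1.25). MYLPF was at 0.66 and ATP2A1 at -0.40, and neither was called. In Pietrain the slow fibre sums ran from 747 to 11159 CPM in the high group and from 27.7 to 8271 CPM in the low group, the lowest in low pig 5, and 0 of 5 were called. Macrophage markers had 2 of 8 higher in Hampshire, with sums of 151 to 217 CPM against 50.6 to 127 CPM, and fibroblast markers 2 of 4, with 1419 to 3559 CPM against 586 to 1146 CPM. Endothelial and red blood cell markers had 0 of 3 called each, and adipocyte markers 1 higher and 1 lower of 3. No tested marker was at 0 throughout. The part of these cells in the members' values was not tested.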

How the data were processed

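RNA of longissimus lumborum from 13 pigs was sequenced by the authors in 101 single-end cycles and 4 technical repeats, and how the repeats were combined is not given in the sources used here. The authors deposited raw counts per Ensembl gene for each pig, in 1 table for each breed, on the Sscrofa10.2 assembly. The submitters' processing notes name FastQC, STAR, RSEM and DESeq2 without versions. The annotation release is not given in the sources used here. The authors' comparison tables (DESeq2 mean, log2 fold change, error, statistic and p-values) gave only symbols and coordinates. Of 25322 identifiers 13168 had a symbol. Of the members 53 were named by the deposited tables and 8 by the reference names alone, and 17 of 78 MRPL and MRPS symbols looked for matched no identifier and were not analysed here. No sequences were used.

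Counts were fitted in R 4.3.3 with edgeR 4.0.16 (TMM factors, filterByExpr with the group, then glmQLFit and glmQLFTest). Fits were made within each breed for loin weight and over all 13 pigs in 4 groups for the difference between breeds and the breed contrasts. P-values were adjusted by Benjamini-Hochberg over all genes tested. Calls needed an adjusted p below 0.05 with a 1.2-fold change or more (adjusted p alone for the difference). Standard errors were derived from the F statistic. Levels are TMM CPM of the 13-pig fit, with a pseudocount of 0.5 on the log2 scale, while fold changes come from the fit of their comparison. Genes called are counted over the whole table. Groups that do not overlap were counted among genes of the 13-pig fit. Each pig was a separate animal, and pigs of a group differed beyond sampling noise in all 15 pairs (chi-square per degree of freedom of 23.74 or more).

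Members were picked by name alone, but the gene family, the lists and the tests were chosen with earlier results of these data known. Members named were the 12 with the largest called change in Hampshire, the 5 with the smallest p in Pietrain, those called for the difference, up to 6 per direction in each breed contrast with groups apart, the 3 highest and 3 lowest by CPM, role genes, the lowest Hampshire member, and ribosomal proteins with other names. Alternatives were DESeq2 1.42.0, its size factors, library totals, no filter, at least 10 counts in every pig, no fold change threshold, a per-pig length trend removed by lowess (span 0.3), 1 fit over all pigs, limma-voom 3.58.1 and leaving out each pig. Figures used matplotlib 3.10.9 in Python 3.11.15. MicroRNA libraries were not analysed here.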

Additional observations from a re-analysis of the deposited data

Results flagged for a closer look

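For 6 members the effect of loin weight on the log2 scale differed between the breeds by edgeR's test of the difference itself, Hampshire minus Pietrain. The difference was 1.75 for MRPL55, 1.17 for MRPL13, 1.13 for MRPS7, 1.13 for MRPL52, 1.02 for MRPS14 and 0.884 for MRPL17. In MRPL13 and MRPS14 neither breed passed alone. No pig stood apart from the other 3 of the Pietrain high group by Dixon's test in 39 tests, where chance gives about 1 in 20. With so few values the test finds only a wide gap, so it does not show that these pigs were alike. Pietrain high pig 7 had the highest total counts of all pigs, 20134612. Pigs 6 and 7 of that group were the pair that differed most (chi-square per degree of freedom of 140.5).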

How the results depend on the processing

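No paired analysis was possible because the groups compared share fewer than 2 pig numbers, and a number does not link pigs. Removing the length trend gave 13 members higher in Hampshire (median 0.30). It gave 2 for the difference between breeds (median 0.35) and a median of 0.26 at high loin weight. In those fits only 77.7% of genes had a length, so no conclusion is drawn from them. Library totals gave medians of 0.34 in Hampshire, 0.0084 in Pietrain, above 0, 0.25 for the difference and 0.32 at high loin weight. They gave 1 member for the difference (0.834% of all genes) and 6 lower at high loin weight (against 3825 of 12831 genes). Without a filter 1 member was called for the difference (0.702% of all genes). DESeq2 gave 9 members higher and 10 lower at low loin weight, where 1317 and 1791 of all 12831 genes were. At least 10 counts in every pig gave 9 higher there, against 1203 of 9656 genes. That filter gave 2 lower at high loin weight, against 2595 of 9656 genes. With a pig left out, members higher in Hampshire numbered 8 to 24 (2.99% to 10.3% of all genes). For the difference they numbered 0 to 8 (median 0.40 to 0.60), against 0.287% to 2.55% of all genes. At low loin weight 0 to 3 members were higher and 0 to 9 lower. All genes higher there numbered 56 to 1221 and lower 34 to 1390, of at least 13172 tested. At high loin weight 25 to 32 members were higher and 0 to 2 lower. All genes higher there numbered 1982 to 3066 and lower 2610 to 3222, of at least 12760 tested. The cause of these moves was not tested.

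Of the 61 members, 55 were above 0 in Hampshire with TMM, 47 with library totals and 52 with the length trend removed. Signs turned as follows among the 28 genes named there. With library totals DAP3 was at -0.058, MRPL1 at -0.097, MRPL3 at -0.081, MRPL44 at -0.054 and MRPS36 at -0.062 in Hampshire. With the length trend removed MRPL44 was at -0.15, MRPS27 at 0.21 and MRPS5 at 0.048. With a pig left out MRPL1 ran from -0.041 to 0.13, MRPL3 from -0.0059 to 0.13, MRPL44 from -0.016 to 0.19, MRPS36 from -0.061 to 0.24 and MRPS5 from -0.21 to 0.0053. Of 28 named genes in Hampshire, all 28 kept direction and call with DESeq2, 21 with library totals and 19 with the length trend removed.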
